A study of Arabidopsis thaliana with 18 samples.

Results

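Of 19260 genes tested in roots of Arabidopsis, 431 stood on opposite sides of the control in lines J0951YUC4 and J0121YUC4. They were chosen by 2 differences of group means of log2(FPKM + 1), where FPKM is a fragment count divided by transcript length and by the mapped total of the library. One difference was J0951YUC4 minus the control J0951Col, and the other was J0121YUC4 minus the same control. A member had opposite signs in the 2 differences, with each at least 0.35 in size, and an FPKM of at least 1 in 3 or more libraries. In 146 members the level was higher in J0951YUC4 and lower in J0121YUC4, which was 0.758% of the genes tested. In 285 members it was lower in J0951YUC4 and higher in J0121YUC4, which was 1.48%. Taken alone, a difference of at least 0.35 was found upward in 13.7% and downward in 13.0% of genes in J0951YUC4, and in 7.65% and 4.9% in J0121YUC4. Genes past 0.35 in both lines with the same sign were 2.33% upward and 2.09% downward. These values chose the members, so they are given as a description with no test.

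All 18 libraries came from cut roots of 5-day-old seedlings kept on 1/2 MS medium, 3 in each of 6 groups. J0951Col carried the GAL4 driver J0951 with no YUC4 transgene. J0951YUC4, J0571YUC4, Q2500YUC4, J0121YUC4 and Q0990YUC4 each carried the named driver together with UAS_YUC4. J0951YUC4 is the group that shares its driver with the control, so in J0121YUC4 driver and transgene differ from it together and cannot be told apart. The labels do not say which root cells each driver marks, nor how many plants made a library.

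In a GAL4 driver line the yeast activator GAL4 is made in the cells where it was trapped by a nearby enhancer, and it switches on any gene placed behind its UAS sequence. YUC4 is a flavin monooxygenase that converts indole-3-pyruvate to the auxin indole-3-acetic acid. Auxin moves from cell to cell in roots, so its effects can reach past the cells that make it. It is known in roots for controlling lateral root founding, the meristem and cell elongation.

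As a check of the labels, YUC4 stood at 0.27, 0.15 and 0.3 FPKM in the 3 control libraries. It reached 31.51, 36.55 and 44.6 FPKM in J0951YUC4 and 726.86, 896.98 and 852.11 FPKM in J0121YUC4. The Q0990YUC4 libraries held 1.68, 11.95 and 0.29 FPKM, so replicate 3 lay within the control range. Replicate 3 of Q2500YUC4 stood apart from the other Q2500YUC4 libraries in the members, although its YUC4 level of 87.43 FPKM was near their 118.54 and 99.28 FPKM. The contrasts between lines are therefore also given without these libraries, a step for gene lists and single genes that was chosen after seeing the data.

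Members spanned high and low levels, with control means from 0.60 to 1135 FPKM in the first set and from 0.60 to 1066 FPKM in the second. The control mean was under 5 FPKM in 61 of the 146 and in 92 of the 285 members. The smaller of the 2 differences reached 1 in 9 genes of the first set and in 4 of the second, and its median was 0.44 and 0.43. In 102 of the 146 genes the libraries of J0951YUC4, J0951Col and J0121YUC4 did not overlap, an order that 4.08% of all genes tested showed. In 191 of the 285 genes they did not overlap in the opposite order, which 4.9% of all genes showed. The difference was larger in J0951YUC4 than in J0121YUC4 for 109 of the 146 and for 221 of the 285 members.

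**Figure D1:**
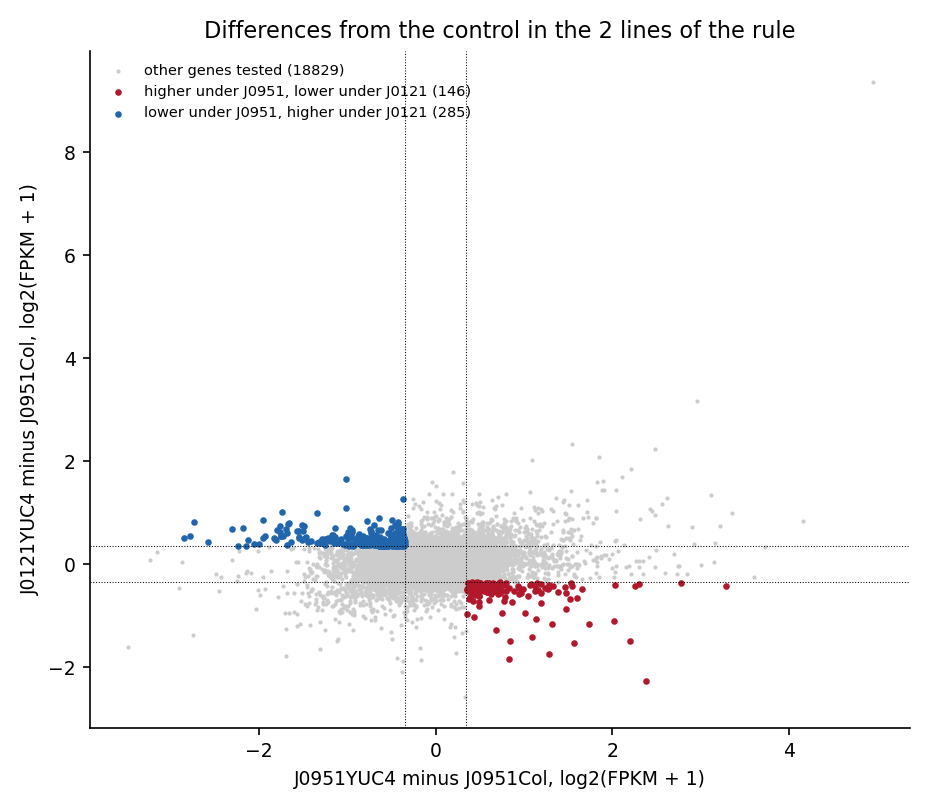
Each point is a gene, with its J0951YUC4 difference from J0951Col on the horizontal axis and its J0121YUC4 difference on the vertical axis, both on the log2(FPKM + 1) scale. Dotted lines mark 0.35 on either side of 0, the 146 red and 285 blue points are the members, and all other genes tested are grey.

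The members nearest the threshold were close to genes left out. AT1G74010 lay inside with differences of 0.41 in J0951YUC4 and -0.35 in J0121YUC4, beside AT4G35720 with 0.47 and -0.35 and AT3G61820 with 0.72 and -0.35. Just outside were AT1G14120 with 0.349 and -1.302, AT3G10950 with 0.49 and -0.35, and ADS1 with 0.41 and -0.35, the latter pair falling short in the fourth decimal or beyond. In the second set AT2G36320, ABCB21 (an auxin carrier of the ABC family) and CXXS1 lay just inside. Just outside were AT2G43140, AT4G26145 and MAP65-7, a microtubule-bundling protein, with -0.51 in J0951YUC4 and 0.348 in J0121YUC4.

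To show the base content described further on, the middle 150 bases of the coding sequence are given for 3 genes of the set lower in J0951YUC4 and for 2 genes of the set higher there. The sequences are from RefSeq, assembly TAIR10.1, read by locus name, 5′ to 3′, and capitals mark runs of at least 6 purines (A or G).
AT3G05900: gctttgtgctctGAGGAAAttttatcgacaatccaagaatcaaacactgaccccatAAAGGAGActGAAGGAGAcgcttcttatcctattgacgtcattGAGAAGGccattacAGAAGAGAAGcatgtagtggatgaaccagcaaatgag
LINC1: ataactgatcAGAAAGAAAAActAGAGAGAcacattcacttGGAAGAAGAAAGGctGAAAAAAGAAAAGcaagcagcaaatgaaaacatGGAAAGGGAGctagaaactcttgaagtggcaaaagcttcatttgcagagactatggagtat
AT5G16730: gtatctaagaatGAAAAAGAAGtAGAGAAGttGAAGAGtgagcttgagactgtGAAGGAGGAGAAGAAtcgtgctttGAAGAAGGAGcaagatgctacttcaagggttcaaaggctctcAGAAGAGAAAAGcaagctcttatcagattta
VSP2: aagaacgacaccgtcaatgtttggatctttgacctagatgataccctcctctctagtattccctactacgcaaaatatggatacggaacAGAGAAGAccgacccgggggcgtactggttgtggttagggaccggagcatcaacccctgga
TT4: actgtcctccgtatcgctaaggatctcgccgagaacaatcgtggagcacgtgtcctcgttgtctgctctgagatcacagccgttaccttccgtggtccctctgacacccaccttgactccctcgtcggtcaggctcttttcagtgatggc

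These windows hold 34.7% adenine in AT3G05900, 46.0% in LINC1 and 38.7% in AT5G16730, against 27.3% in VSP2 and 16.0% in TT4. The whole coding sequences lie closer together for LINC1 and TT4. They hold 37.4%, 36.1% and 36.9% in the first 3 genes, 27.8% in VSP2 and 23.0% in TT4. Purine runs cover 40, 54 and 60 of the 150 bases in the first 3 genes, 8 in VSP2 and 0 in TT4.

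Among genes higher in J0951YUC4 and lower in J0121YUC4, the greatest difference was in AT5G04120, a phosphoglycerate mutase family gene. Its control libraries held 32.16, 18.07 and 15.33 FPKM, those of J0951YUC4 105.41, 131.23 and 103.46 FPKM, and those of J0121YUC4 3.2, 2.97 and 4.62 FPKM. The leading members of both sets were chosen among those whose 3 groups did not overlap, so for them this is no result. For AT5G04120 the differences from the control were 2.38 and -2.26. Its level was lower still in J0571YUC4, at 0.36, 0.67 and 2.38 FPKM, and lay between 9.78 and 15.32 FPKM in Q0990YUC4.

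VSP1 and VSP2 encode vegetative storage proteins, acid phosphatases known as jasmonate-induced genes. VSP2 held 3.05, 3.54 and 5.96 FPKM in the control, 14.02, 17.07 and 11.36 FPKM in J0951YUC4 and 0.25, 0.82 and 1.31 FPKM in J0121YUC4. All J0951YUC4 libraries lay above all control libraries, which lay above those of J0121YUC4. VSP1 was more abundant, with 27.11, 21.44 and 39.6 FPKM in the control, 74.6, 83.96 and 56.07 FPKM in J0951YUC4 and 4.15, 9.35 and 11.95 FPKM in J0121YUC4. The pair are neighbours on chromosome 5 and close in sequence, so reads could be split between them. They were the only members among 15 jasmonate and wounding genes tested, whose median differences were 0.42 in J0951YUC4 and 0.03 in J0121YUC4.

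ICS2, an isochorismate synthase of the pathway to salicylate and phylloquinone, held 8.63, 6.87 and 8.08 FPKM in the control. It held 35.24, 52.13 and 33.68 FPKM in J0951YUC4 and 1.39, 2.19 and 3.1 FPKM in J0121YUC4, with no overlap by choice of leading members. In Q2500YUC4 its libraries held 9.82, 6.56 and 1.26 FPKM and in Q0990YUC4 1.59, 11.28 and 3.88 FPKM, so single libraries of these groups lay on both sides of the control. PAD3, a cytochrome P450 that completes synthesis of the phytoalexin camalexin, was the member among 14 salicylate and defence genes, with differences of 0.55 and -0.52.

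The response to low sulfur genes LSU1, LSU2 and LSU3 were all members, of which LSU1 and LSU3 are neighbours. They encode small proteins that accumulate when sulfur is short. LSU1 held 12.21, 8 and 11.22 FPKM in the control, 16.16, 21.12 and 20.32 FPKM in J0951YUC4 and 1.74, 1.84 and 3.07 FPKM in J0121YUC4, with no overlap. For LSU2 the differences were 1.01 and -0.95, and for LSU3 0.75 and -0.95. Over the 17 sulfate genes tested the median was 0.40 in J0951YUC4 and -0.19 in J0121YUC4, beside 0.05 and 0.06 over all genes tested. LSU1 and LSU2 were on that list and LSU3 was not.

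Of 19 phosphate starvation genes tested, 5 were members and all were of this set. They were SPX1, a phosphate-sensing inhibitor of PHR1, PAP17, a purple acid phosphatase, PS2, a pyrophosphatase, G3Pp1, a glycerol-3-phosphate transporter, and RNS1, a ribonuclease. SPX1 held 7.82, 10.13 and 6.75 FPKM in the control, 21.13, 23.01 and 19.69 FPKM in J0951YUC4 and 6.24, 4.85 and 6.09 FPKM in J0121YUC4. RNS1 held 0.89, 1.43 and 0.93 FPKM in the control against 10.41, 9.15 and 7.43 FPKM in J0951YUC4 and 0.58, 0.65 and 0.4 FPKM in J0121YUC4. None of the 5 overlapped between the groups, as was found in 102 of the 146 genes of this set and in 4.08% of all genes tested. The values of these groups chose the members, so this is no result. Their J0951YUC4 differences ran from 0.63 in G3Pp1 to 2.26 in RNS1, while those in J0121YUC4 lay between -0.55 and -0.38. The median over the 19 genes was 0.27 in J0951YUC4 and -0.14 in J0121YUC4.

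A run of 4 adjacent members lay at AT5G37990 to AT5G38020. AT5G37990 and AT5G38020 are methyltransferases of the kind that use S-adenosylmethionine, AT5G38000 is a zinc-binding dehydrogenase and AT5G38010 a UDP-glycosyltransferase. AT5G37990 held 49.64, 39.3 and 75.87 FPKM in the control, 190.88, 219.25 and 135.94 FPKM in J0951YUC4 and 14.78, 22.64 and 36.61 FPKM in J0121YUC4. KIN1 and KIN2, cold- and water-stress-induced genes, and AT5G15950, an S-adenosylmethionine decarboxylase, formed a run of 3. KIN1 held 20.03, 14.79 and 16.05 FPKM in the control, 29.77, 39.36 and 43.64 FPKM in J0951YUC4 and 5.78, 5.64 and 5.73 FPKM in J0121YUC4. KIN2 differed by 1.13 and -0.43. HAI1, a PP2C phosphatase of abscisic acid signalling, differed by 0.49 and -0.61. These were the 3 members among 16 abscisic acid and water stress genes tested. In all, 17 members of this set lay in 7 runs of adjacent members. In the other set 19 of the 270 placed on the annotation lay in 9 runs.

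AT5G38020 of the run above differed by 1.32 and -1.16, and 4 more genes were among the leading members. AT2G41480, a class III peroxidase, held 2.65, 1.76 and 1.83 FPKM in the control, 10.73, 10.03 and 13.81 FPKM in J0951YUC4 and 0.4, 0.61 and 0.27 FPKM in J0121YUC4. AT2G16005, an MD-2-related lipid recognition protein, was abundant, at 345.3, 317.42 and 450.29 FPKM in the control, 782.75, 692.56 and 524.73 FPKM in J0951YUC4 and 81.56, 140.8 and 188.21 FPKM in J0121YUC4. AT2G37870, a lipid-transfer family gene, differed by 1.48 and -0.87, and AT3G45680, a major facilitator transporter, by 1.13 and -1.05. In all 4 the libraries of the 3 groups did not overlap, as the choice of leading members required.

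Wall-loosening genes were a further group. Expansins loosen walls and xyloglucan endotransglucosylase/hydrolases (XTHs) cut and rejoin xyloglucan. Of 22 expansin genes tested, EXPA8, EXPA10, EXPA11 and EXLA2 were members, and of 23 xyloglucan enzymes XTH5, XTH7, XTH19, XTH32 and XTR6. None of either family was a member in the opposite direction. XTH5 held 15.04, 14.52 and 15.46 FPKM in the control, 40.93, 39.06 and 50.8 FPKM in J0951YUC4 and 9.64, 11 and 11.73 FPKM in J0121YUC4. EXPA11 held 33.42, 32.37 and 34.12 FPKM in the control, 50.82, 47.86 and 49.91 FPKM in J0951YUC4 and 25.54, 23.81 and 24.45 FPKM in J0121YUC4. The family medians were 0.46 in J0951YUC4 for both families, and -0.08 for expansins and -0.18 for xyloglucan enzymes in J0121YUC4.

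Photosynthesis genes were 9 of the 60 tested genes with photosystem or chlorophyll-binding products, words chosen after the members were seen. One more of the 60, LPA19, annotated as a photosystem II 11 kDa protein-like protein, was a member in the opposite direction, with differences of -0.39 and 0.44. CAB1, a light-harvesting protein of photosystem II, held 64.64, 44.67 and 65.34 FPKM in the control, 152.72, 142.39 and 213.47 FPKM in J0951YUC4 and 41.74, 44.07 and 24.83 FPKM in J0121YUC4. Its neighbour CAB2 is near-identical in sequence and was much scarcer, reaching 23.16 FPKM in replicate 3 of J0951YUC4 against 5.59 and 5.82 FPKM in the other libraries, so the split between the pair is uncertain. PSBP-1, a subunit of the oxygen-evolving complex, differed by 0.80 and -0.36. Over the 60 genes the median difference was 0.70 in J0951YUC4, 0.73 in J0571YUC4 and -0.09 in J0121YUC4. The summed level of 5 shoot tissue markers, of which CAB2 is one, moved with the 9 members. It was 95.6 to 105.6 FPKM in the control, 134.9 to 231.8 FPKM in J0951YUC4 and 48.2 to 83.8 FPKM in J0121YUC4, and no marker was at 0 throughout a group. The markers did not move alike, since their median difference was 2.3 in J0951YUC4 and only -0.17 in J0121YUC4. RBCS1A, another of the 5, differed by 0.18 and -0.77. The part of the markers in the result was not tested. In bulk roots, fewer cells of a type and less RNA per cell cannot be told apart.

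Among 14 flavonoid genes, TT4, F3H and TT5, which encode the first steps from chalcone synthase, were members, and their libraries overlapped. TT4 held 155.39, 288.7 and 319.72 FPKM in J0951YUC4 beside 171.22, 128.1 and 150.92 FPKM in the control. In Q2500YUC4 it held 408.5, 327.22 and 82.15 FPKM, with replicate 3 far below the other libraries. The remaining listed members of this set were NAC070 (also BRN2), a root cap maturation factor, RALFL34, a peptide of lateral root initiation, the aquaporins PIP2E and PIP2;5, and AT1G21140, a vacuolar iron transporter.

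**Figure D2:**
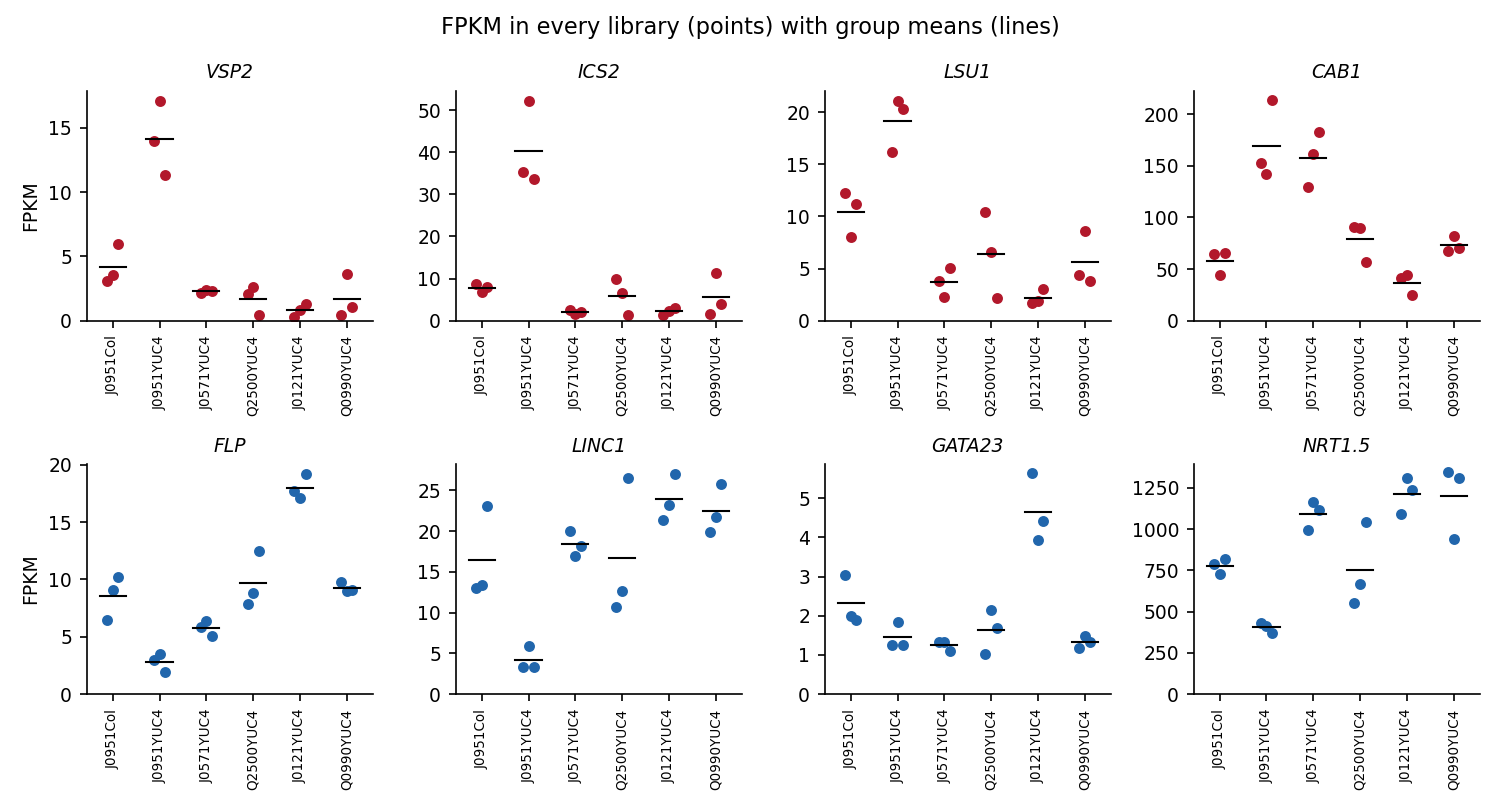
FPKM of 4 genes of each set on the vertical axis against the 6 groups, with 1 point per library and a line at each group mean (n = 3). VSP2, ICS2, LSU1 and CAB1 (red) are highest in J0951YUC4, and FLP, LINC1, GATA23 and NRT1.5 (blue) are lower in J0951YUC4 than in J0121YUC4, whereas CAB1 is also high in J0571YUC4 and NRT1.5 in Q0990YUC4.

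Among genes lower in J0951YUC4 and higher in J0121YUC4, 4 had differences of 1 or more in both lines. AT1G80165, annotated as a cotton fiber protein, held 3.9, 5.63 and 5.27 FPKM in the control, 0.39, 2.29 and 0.21 FPKM in J0951YUC4 and 8.2, 11.71 and 13.54 FPKM in J0121YUC4. TPX2 (AT1G65970), a thioredoxin-dependent peroxidase, held 214.96, 231.84 and 163.81 FPKM in the control, 103.32, 88.29 and 106.32 FPKM in J0951YUC4 and 448.19, 409.87 and 431.07 FPKM in J0121YUC4. Its locus is not that of the spindle protein of the same symbol. AT1G12010, an ACC oxidase for the last step of ethylene synthesis, held 16, 23.66 and 15.23 FPKM in the control, 10.31, 7.26 and 7.82 FPKM in J0951YUC4 and 63.47, 67.36 and 47.74 FPKM in J0121YUC4. FLP, a MYB factor known for ending stomatal divisions, held 6.43, 9.11 and 10.22 FPKM in the control, 2.94, 3.47 and 1.97 FPKM in J0951YUC4 and 17.71, 17.07 and 19.21 FPKM in J0121YUC4. All 4 separated the 3 groups, as the choice of leading members required.

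Long coiled-coil proteins formed the greatest family of this set, with 25 of 67 tested genes whose product words name them, words chosen after the members were seen. LINC1, LINC2, LINC3 and LINC4 build the lamina under the plant nuclear envelope, and all 4 were members. LINC1 held 13.08, 13.42 and 23.04 FPKM in the control, 3.39, 5.88 and 3.29 FPKM in J0951YUC4 and 21.42, 23.24 and 27.06 FPKM in J0121YUC4. Control replicate 3 was within the J0121YUC4 range, and all J0951YUC4 libraries were under all others. LINC3 held 3.81, 3.62 and 7.59 FPKM in the control, 0.62, 1.04 and 0.49 FPKM in J0951YUC4 and 8.17, 8.29 and 9.68 FPKM in J0121YUC4, with no overlap. The actin-binding NET1A, NET1B, NET1D and NET4B were members as well, with J0951YUC4 differences from -1.57 to -0.38. AT3G05900, a neurofilament-like protein, held 31.93, 37.96 and 55.12 FPKM in the control, 4.65, 9.34 and 2.33 FPKM in J0951YUC4 and 58.57, 52.85 and 64.56 FPKM in J0121YUC4. Its control replicate 3 too was within the J0121YUC4 range. Over the 67 genes the median difference was -0.67 in J0951YUC4 and 0.27 in J0121YUC4.

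Members of 2 families of chromosome proteins, chosen after the members were seen, were also lower in J0951YUC4. Of 11 genes of the structural maintenance of chromosomes (SMC) family, whose proteins form cohesin and condensin rings, 5 were members, namely SMC3, SMC5, ATSMC2, TTN7 and TTN8. These are symbols of the annotation, where SMC3 is the locus AT5G48600, and they do not say which ring a gene belongs to. TTN8 held 5.99, 6.07 and 11.94 FPKM in the control, 1.36, 2.72 and 1.23 FPKM in J0951YUC4 and 11.28, 11.61 and 13.43 FPKM in J0121YUC4. Of 4 DEK domain genes, annotated as chromatin associated, 3 were members. The histone gene AT1G09200 was a member in the opposite direction, with differences of 0.37 and -0.37. The DEK domain gene AT4G26630 held 27.43, 22.28 and 43.29 FPKM in the control, 8.21, 9.21 and 6.14 FPKM in J0951YUC4 and 43.08, 36.89 and 48.29 FPKM in J0121YUC4. In both TTN8 and AT4G26630 control replicate 3 lay within the J0121YUC4 range. The neighbours TOP1ALPHA and TOP1BETA, DNA topoisomerases, differed by -0.92 and 0.49 and by -0.64 and 0.35. The remaining leading genes included AT5G40340 and AT1G15940, Tudor/PWWP domain proteins, with differences of -1.65 and 0.81 and of -1.69 and 0.68. AT4G26190, a HAD-like hydrolase, differed by -1.67 and 0.78, AT2G38370, a weak chloroplast movement under blue light family protein, by -0.74 and 0.68, and AT1G30720, a berberine-bridge oxidase, by -0.95 and 0.68.

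Nitrogen genes supplied 3 members of 33 tested. The median over the 33 genes was 0.08 in J0951YUC4 and 0.12 in J0121YUC4, near the 0.05 and 0.06 over all genes tested. NRT1.5, which loads nitrate into the xylem, held 790.84, 730.18 and 816.4 FPKM in the control, 430.24, 410.83 and 371.67 FPKM in J0951YUC4 and 1091.41, 1308.31 and 1239.77 FPKM in J0121YUC4, with no overlap. BT1, a nitrate-responsive BTB and TAZ scaffold protein, differed by -0.48 and 0.44, and AMT1;3, an ammonium transporter, by -0.68 and 0.37, both with overlapping libraries.

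GATA23 and LBD29, transcription factors of lateral root founder cells, were the members of this set among 19 lateral root initiation genes. RALFL34 of the same list was a member in the opposite direction. The median over the 19 genes was 0.08 in J0951YUC4 and 0.38 in J0121YUC4. LBD29 held 2.69, 2.75 and 1.95 FPKM in the control, 1.84, 1.89 and 1.3 FPKM in J0951YUC4 and 7.89, 6.36 and 7.87 FPKM in J0121YUC4. GATA23 held 3.05, 1.99 and 1.9 FPKM in the control, 1.25, 1.84 and 1.26 FPKM in J0951YUC4 and 5.64, 3.92 and 4.41 FPKM in J0121YUC4. Both separated the 3 groups, whose values had chosen them, by narrow margins on the J0951YUC4 side. The 5 markers of xylem-pole pericycle and founder cells, which include both genes, summed to 242 to 292 FPKM in the control, 60.1 to 62.8 FPKM in J0951YUC4 and 126 to 135 FPKM in J0121YUC4. That sum was below the control in both lines and came mostly from TIP2;3, a tonoplast aquaporin with a control mean of 242.3 FPKM. The median over the 5 markers was -0.37 in J0951YUC4 and 0.78 in J0121YUC4. In J0121YUC4 LBD16, with a difference of 1.21, was above the control like the pair, while AT5G09760 and TIP2;3 were below it, at -0.64 and -1.37. In J0951YUC4 LBD16 was above the control, at 0.32, unlike the pair, and AT5G09760 and TIP2;3 were below it, at -0.27 and -2.75. The part of the markers in the result was not tested.

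The other listed members of this set were CVP2, a phosphoinositide phosphatase of vein patterning, FAR1, a fatty acyl reductase that makes suberin alcohols, PRR3 and CDF2 of the circadian clock, and the aquaporin PIP2;4. PIP2;4 held 74.68, 83.86 and 82.46 FPKM in the control, 49.81, 50.28 and 41.7 FPKM in J0951YUC4 and 110.72, 109.19 and 107.07 FPKM in J0121YUC4. Of 141 leucine-rich repeat kinases tested 11 were members, all of this set. They included the neighbours AT2G28960, AT2G28970 and AT2G28990, and the neighbours AT1G07550 and AT1G07560. Of 14 defensin genes, which encode small cysteine-rich peptides, AT1G34047, AT3G59930 and AT5G33355 were members, of which AT1G34047 differed by -0.97 and 0.70.

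Plastid-encoded loci supplied 15 members of 36 tested, and none of the opposite set. ATCG01130 held 4.66, 6.56 and 6.77 FPKM in the control, 1.66, 1.83 and 1 FPKM in J0951YUC4 and 10.15, 8.88 and 13.45 FPKM in J0121YUC4. Over the 15 loci the J0951YUC4 differences ran from -2.78 to -0.37 and the J0121YUC4 differences from 0.37 to 0.83. In 4 of these loci the values were shared within 2 identical pairs, ATCG00830 with ATCG01310 and ATCG00840 with ATCG01300, so they are not separate measurements. Over all 36 loci the median was -0.76 in J0951YUC4 and 0.15 in J0121YUC4.

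No gene of the lists for Aux/IAA repressors, SAUR genes, GH3 and auxin oxidation, auxin synthesis, auxin transport, cytokinin, the cell cycle, root hairs, the root meristem, the Casparian strip or xylem walls was a member. These lists held 27, 38, 13, 20, 21, 25, 23, 25, 18, 12 and 18 tested genes in that order. Of all genes tested, 0.758% were members of the first set and 1.48% of the second. At these shares a list of such size would often hold no member, so the absence does not show that these genes were spared. Lists for aliphatic and indole glucosinolates, gibberellin and brassinosteroid, heat shock, low oxygen, and sugar and energy also held none. ABCB21 was a member but was on no list.

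The 2 sets differed in the base content of their coding sequences, which the rule did not use. The median adenine share was 32.3% over the 270 genes of the second set with a RefSeq coding sequence, 26.5% over the 146 genes of the first and 28.3% over 19205 genes tested. The median G and C content was 42.7%, 47.5% and 44.4% in the same order, and the median coding length 1503, 853.5 and 1143 bases. When all genes were ranked by adenine share and cut into 10 groups of equal size, the richest group held 135 of the second set, which was 7.03% of its 1921 genes, and 6 of the first. The poorest group held 42 of the first set, 2.19% of its genes, and 16 of the second. The richest group began at 32.26% adenine. Above that lay the medians of the long coiled-coil genes (34.6%), the SMC genes (34.1%) and the DEK domain genes (40.1%). These families are therefore not apart from the base content, whose part in their levels was not tested.

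**Figure D3:**
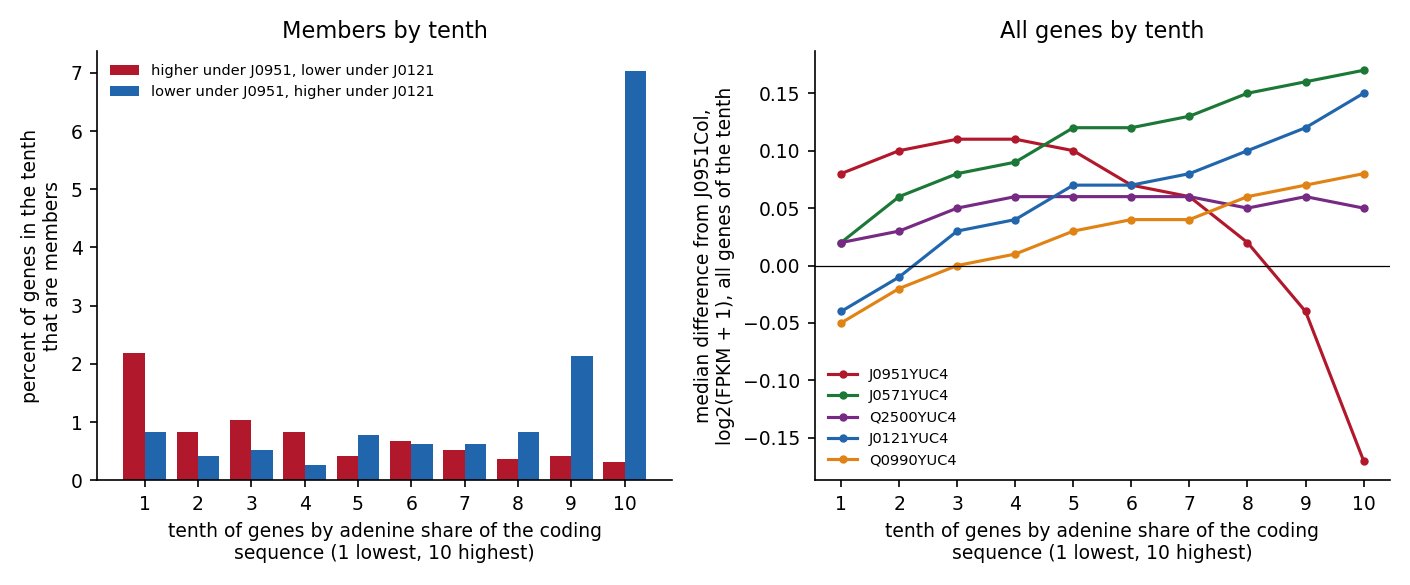
Left, the percentage of the genes in each of 10 equal groups by coding adenine share that belong to either set, and right, the median difference from J0951Col over all genes of the group in each line, on the log2(FPKM + 1) scale. In the richest group 7.03% of genes are lower in J0951YUC4 and higher in J0121YUC4, and the median over all its genes is -0.17 in J0951YUC4 and 0.15 in J0121YUC4.

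Over all genes tested, the median J0951YUC4 difference was 0.08 in the adenine-poorest group, was 0.11 in the third and the fourth and was -0.17 in the richest. The median J0121YUC4 difference went from -0.04 in the poorest group to 0.15 in the richest. With the members left out, the medians were 0.08 and -0.14 in J0951YUC4 for the poorest and the richest group, and -0.04 and 0.13 in J0121YUC4. Within groups the libraries differed too. The 1921 adenine-rich genes had medians of -0.08, 0.01 and 0.06 in the control libraries, -0.14, -0.10 and -0.28 in J0951YUC4, and 0.17, 0.10 and 0.18 in J0121YUC4. When each library was centred within these 10 groups, 170 genes met the rule in the direction of the second set, 145 of them among the 285, and 150 in the direction of the first, 115 of them among the 146. This setting was chosen after seeing the data.

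Promoters were compared over the 250 bases before and 50 bases after the annotated start, on both strands. CACGTG, the G-box, was in 28 of 146 promoters of the first set (19.2%), in 16 of 270 of the second (5.93%) and in 8.64% of 19204 promoters of all genes tested. TTGACC, the W-box, was in 13.7%, 18.9% and 14.5% in the same order. The auxin response element TGTCTC was in 13.7%, 12.6% and 13.6%, and TGTCGG in 6.16%, 5.56% and 5.7%. GCCGCC was in 2.74%, 3.33% and 2.65%, and TATAAA in 56.2%, 55.6% and 51.6%. A match is a description of letters in this window.

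How the members stood in the lines that the rule did not use was asked next. Each library was summarised by the median over a set of its difference from the control mean. For the set lower in J0951YUC4 the medians were 0.25, 0.19 and 0.25 in J0571YUC4, 0.26, 0.24 and 0.45 in Q0990YUC4, and -0.27, -0.02 and 0.38 in Q2500YUC4. For the set higher in J0951YUC4 they were 0.06, -0.04 and 0.07 in J0571YUC4, -0.30, -0.09 and -0.38 in Q0990YUC4, and 0.23, 0.02 and -0.35 in Q2500YUC4. These lines are set against the same control libraries as the rule, so nothing about the choice of members rests on them. Of the Q2500YUC4 libraries, replicate 3 stood nearest in both sets to the J0121YUC4 libraries, whose medians were 0.44 to 0.47 and -0.52 to -0.47.

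**Figure D4:**
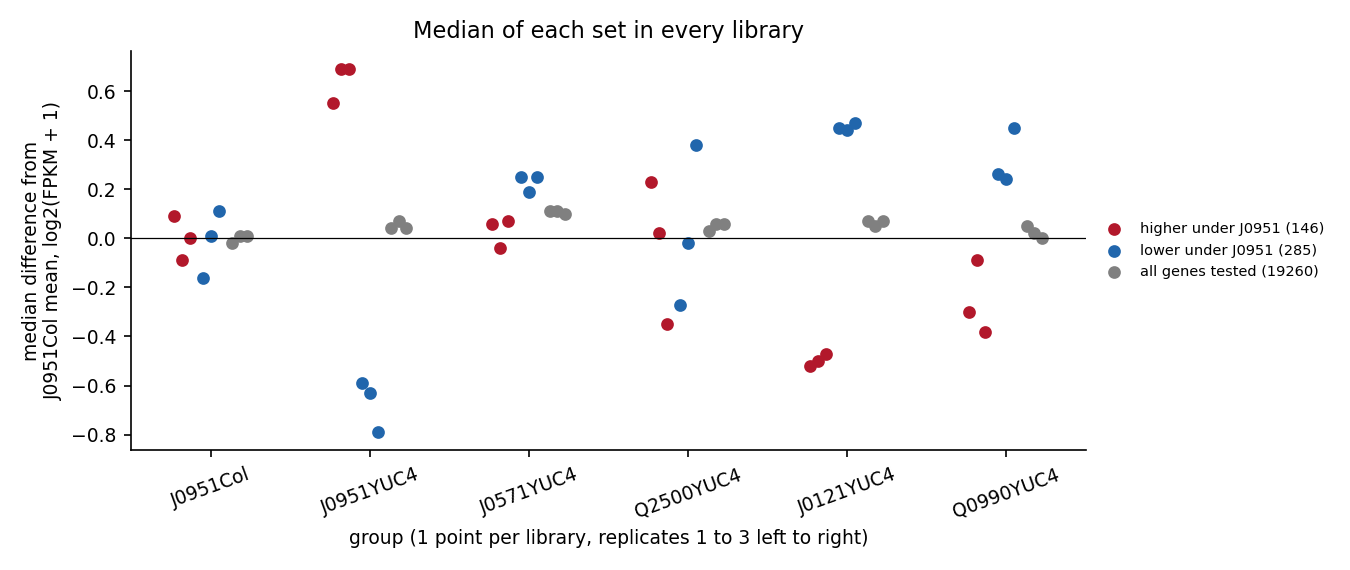
The vertical axis is the median over a set of log2(FPKM + 1) minus the J0951Col mean, 1 point per library for each of the 6 groups, with all 19260 genes tested in grey. The sets are farthest apart in J0951YUC4 and J0121YUC4 by choice of members, and the 3 Q2500YUC4 libraries run from 0.23 to -0.35 in one set and from -0.27 to 0.38 in the other.

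The contrasts between J0571YUC4, Q2500YUC4 and Q0990YUC4 compare means of libraries that the rule did not use. They were tested with limma across all 19260 genes, with Benjamini-Hochberg adjustment, and genes with an adjusted p below 0.05 are counted as called. The spread behind each p-value was estimated over all 18 libraries, those of the rule included. With the 2 groups of a contrast fitted alone, members called were 127 in place of 101 in J0571YUC4 against Q0990YUC4. They were 47 in place of 73 in J0571YUC4 against Q2500YUC4, and 5 in place of 111 in Q2500YUC4 against Q0990YUC4. In J0571YUC4 against Q0990YUC4, 50 of the 146 genes of the first set rose and 15 fell, where 18.4% of all genes tested rose and 7.62% fell. Of the 285 genes of the second set 5 rose and 31 fell, or 1.75% and 10.9%. The median difference was 0.20 in the first set and -0.08 in the second, beside 0.08 over all genes. Without replicate 3 of Q0990YUC4 the members called went from 101 to 63, with 31 rising and 13 falling in the first set and 4 and 15 in the second. All genes tested then gave 9.79% and 5.38%, and the medians of the sets were 0.18 and -0.02. After median-of-ratios scaling 36 rose and 16 fell in the first set, and 4 rose and 42 fell in the second.

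XTH5 rose most clearly in this contrast, from 8.97 ± 1.48 FPKM (SD, n = 3) in Q0990YUC4 to 36.7 ± 5.03 FPKM in J0571YUC4 (log2 difference 1.92, SE 0.14, limma adjusted p = 7.8e-08). TCH3, a calmodulin-like protein induced by touch, was at 2.34 ± 0.42 FPKM and 18.19 ± 6.19 FPKM (log2 difference 2.48, SE 0.18, limma adjusted p = 9.1e-08). LEA7, a late embryogenesis abundant protein, rose by 2.34 (limma adjusted p = 4.6e-07). AT4G11210, a dirigent-like protein, fell from 50.8 ± 1.47 FPKM in Q0990YUC4 to 20.2 ± 2.86 FPKM (log2 difference -1.30, limma adjusted p = 1.7e-07). Of 29 shoot photosynthesis genes tested 20 rose, with a median difference of 0.76, and 17 rose without replicate 3 of Q0990YUC4. The sum of the 5 shoot markers moved with them, at 121.9 to 169.7 FPKM in J0571YUC4 and 103.8 to 113.0 FPKM in Q0990YUC4. Its part in the result was not tested. Of 28 water and ion channel genes 3 rose and 11 fell, and 2 rose and 7 fell without that library. PIP2;4 was among those that fell, at -1.21 (limma adjusted p = 3.8e-06) and at -1.22 without it (limma adjusted p = 3.4e-05). All genes tested gave 18.4% rising and 7.62% falling, and 9.79% and 5.38% without replicate 3 of Q0990YUC4. Of the 29 genes only CAB1, CAB2 and PSBP-1 were members, and of the 28 only PIP2;4, PIP2;5 and PIP2E. The counts of these 2 lists are therefore mostly of genes that are not members.

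In J0571YUC4 against Q2500YUC4, 28 of the 146 genes of the first set rose and 17 fell, where 9.33% of all genes tested rose and 5.19% fell. Of the 285 genes of the second set 12 rose and 16 fell, or 4.21% and 5.61%. Without replicate 3 of Q2500YUC4 the 73 members called became 205 and the balance turned in both sets. In the first set 22 rose and 49 fell, and in the second 116 rose and 18 fell, where 15.8% of all genes tested rose and 9.14% fell. With those 2 groups fitted alone the total was 47. After median-of-ratios scaling 22 genes rose and 20 fell in the first set, and 7 rose and 18 fell in the second. AT2G38390, a class III peroxidase of the second set, was at 55.0 ± 2.80 FPKM in J0571YUC4 and 150.4 ± 2.097 FPKM in Q2500YUC4 (log2 difference -1.44, SE 0.09, limma adjusted p = 8.6e-08). TCH3 differed by 2.06 (limma adjusted p = 1.9e-06), LEA7 by 2.1 (limma adjusted p = 4e-06) and EXPA8 by -1.48 (limma adjusted p = 4.8e-06). Thus LEA7 and TCH3 were higher in J0571YUC4, while EXPA8 of the same set was lower. Of 17 sulfate genes 9 fell, with LSU2 at a log2 difference of -1.18 (limma adjusted p = 0.0059). LSU1 and LSU3 were not called (limma adjusted p = 0.34 and 0.16). Without replicate 3 of Q2500YUC4 12 of the sulfate genes fell. LSU1, LSU2 and LSU3, the last of which was not on the sulfate list, were then all called, at -1.03, -1.53 and -1.06 (limma adjusted p = 0.018, 0.00027 and 0.0044).

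In Q2500YUC4 against Q0990YUC4, 32 of the 146 genes of the first set rose and 3 fell, where 16.1% of all genes tested rose and 10% fell. Of the 285 genes of the second set 12 rose and 64 fell, or 4.21% and 22.5%. The median difference was 0.16 and -0.30 in the 2 sets, beside 0.02 over all genes. This contrast rested on single libraries. The 111 members called became 230 without replicate 3 of Q2500YUC4, 34 without its replicate 1, 59 without its replicate 2, 41 without replicate 3 of Q0990YUC4, and 5 with the 2 groups fitted alone. Without replicate 3 of Q2500YUC4 55 genes of the first set rose and 2 fell, and 13 of the second rose and 160 fell, with medians of 0.36 and -0.50. All genes tested then gave 19.9% and 16%. Without replicate 3 of Q0990YUC4 the counts were 13 and 3 in the first set and 10 and 15 in the second, with medians of 0.15 and -0.23, and all genes gave 7.55% and 3.7%.

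RALFL34 was at 20.097 ± 5.75 FPKM in Q2500YUC4 and 10.8 ± 1.35 FPKM in Q0990YUC4 (log2 difference 0.81, SE 0.14, limma adjusted p = 0.0011). The histone gene AT1G09200 differed by 0.64 (limma adjusted p = 0.0011), the defensin-like AT1G34047 by 1.22 (limma adjusted p = 0.0012) and LBD29 by 0.71 (limma adjusted p = 0.0013). With the 2 groups alone RALFL34 and AT1G09200 were no longer called (limma adjusted p = 0.065 and 0.063), and over all 14 alternatives their limma adjusted p ran from 2.1e-05 and 0.00013 up to these values. GATA23, the other founder cell factor, was not called in this contrast (limma adjusted p = 0.52). NRT1.5 differed by -0.70 (limma adjusted p = 0.0092), with Q2500YUC4 libraries at 550.85, 664.92 and 1044.71 FPKM against 1346.2, 937.49 and 1312.95 FPKM. It differed by -0.97 without replicate 3 of Q2500YUC4 (limma adjusted p = 0.00014), and was not called without replicate 3 of Q0990YUC4, at -0.63 (limma adjusted p = 0.052).

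**Figure D5:**
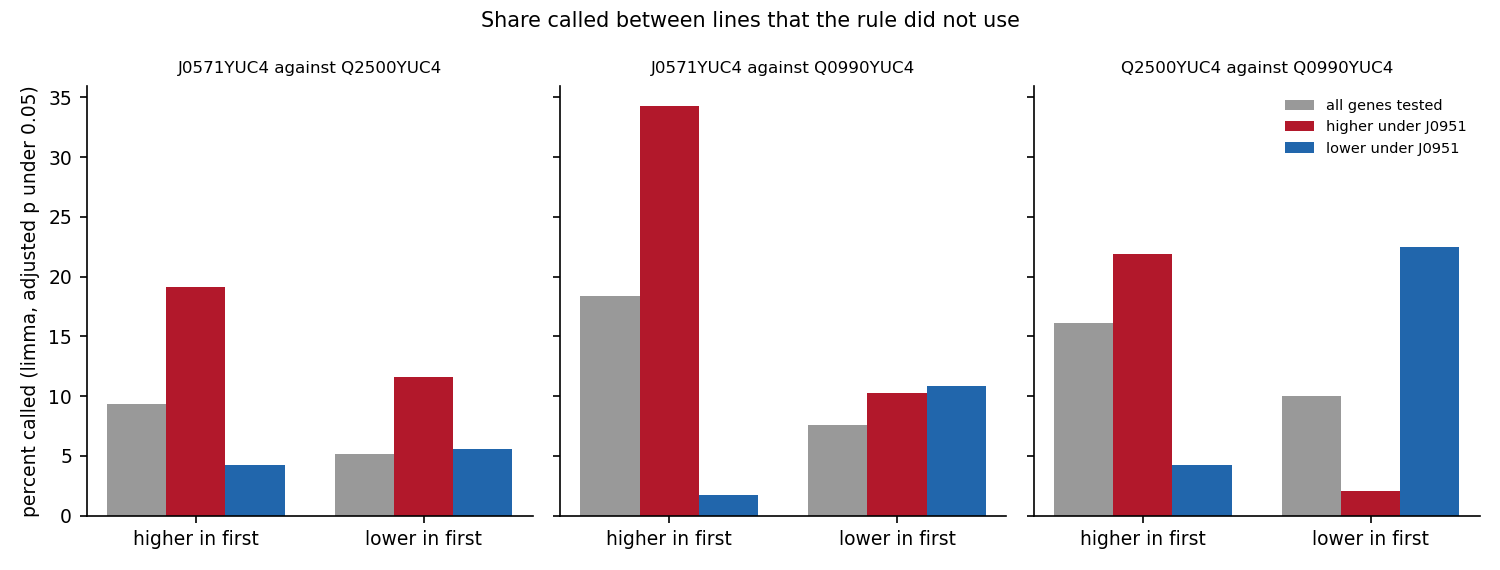
Bars give the percentage of genes called higher or lower in the first line of each of 3 contrasts, for all genes tested (grey), for members higher in J0951YUC4 (red) and for members lower there (blue). In J0571YUC4 against Q0990YUC4 34.2% of the red set rose, beside 18.4% of all genes, and in Q2500YUC4 against Q0990YUC4 22.5% of the blue set fell, beside 10% of all genes.

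Against J0951Col, whose libraries entered the rule, the same lines gave these counts side by side. In J0571YUC4 28 genes of the first set rose and 27 fell, and 43 of the second rose and 15 fell, where 19.8% of all genes rose and 7.63% fell. The median over all genes there was 0.11 above the control, and after median-of-ratios scaling 18 rose and 35 fell in the first set, and 11 rose and 17 fell in the second. The total of 113 became 72 without J0951Col replicate 1, 73 without J0571YUC4 replicate 1 and 75 without its replicate 2. In Q2500YUC4 3 of the first set rose and 13 fell, and 9 of the second rose, where 6.88% of all genes rose and 4.43% fell. The total of 25 became 66 without Q2500YUC4 replicate 3, with 30 rising and 10 falling in the first set and 9 rising and 17 falling in the second, so that the balance turned in both. It became 13 to 15 without its replicate 1 or 2 or without control replicate 1 or 3. In Q0990YUC4 5 of the first set fell and 1 of the second rose, where 0.187% of all genes rose and 0.27% fell. That total of 6 became 0 without control replicate 1, control replicate 3 or Q0990YUC4 replicate 3, 2 without control replicate 2, and 11 and 21 without Q0990YUC4 replicates 1 and 2.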

How the data were processed

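RNA from roots was reverse-transcribed with random primers and sequenced by Illumina technology, per the labels' protocols. The authors deposited FPKM for 25202 loci in 18 libraries. Neither aligner nor genome build is named in those sources, so no coordinates are printed, and read depth is unknown. Summed FPKM per library was 650929 to 678093. Names, neighbours, promoters and coding sequences came from RefSeq TAIR10.1 by locus name (24999 loci matched). Near-identical copies and overlapping genes may share reads.

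From the deposited FPKM, log2(FPKM + 1) was computed, which understates differences of low genes. Tests used limma 3.58.1 in R 4.3.3 with a mean-variance trend, 1 mean per group over 18 libraries (12 residual degrees of freedom), and Benjamini-Hochberg adjustment over 19260 genes, and were tested on simulated data. Whether libraries came from separate plants is not stated, so p-values measure only the spread between them. Lists held 868 entries in 32 gene lists and 10 marker lists, of which 819 matched. Members and lists were chosen with earlier results of these data known. Genes named were, per direction, the 12 with the largest smaller difference among non-overlapping members of at least 5 FPKM, those nearest the threshold, listed members, and the 4 smallest adjusted p per tested contrast; family examples were chosen after seeing values. Alternatives changed the pseudocount, filter, scaling, threshold, variance model, libraries fitted and a replicate block.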

Additional observations from a re-analysis of the deposited data

Results flagged for a closer look

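The members below differed between lines that the rule did not use, by a limma test of the difference itself, and are given as log2 differences. In J0571YUC4 minus Q2500YUC4, AT2G38390 stood at -1.44, TCH3 at 2.06, LEA7 at 2.1 and EXPA8 at -1.48. In J0571YUC4 minus Q0990YUC4, XTH5 stood at 1.92, TCH3 at 2.48, AT4G11210 at -1.30 and LEA7 at 2.34. In Q2500YUC4 minus Q0990YUC4, RALFL34 stood at 0.81, AT1G09200 at 0.64, AT1G34047 at 1.22 and LBD29 at 0.71. TCH3, LEA7 and XTH5 of the first set were higher in J0571YUC4, while EXPA8 and AT4G11210 of the same set were lower there.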

How the results depend on the processing

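The number of genes that met the rule depended on its scale and threshold, and which genes met it also depended on the scaling and the libraries. With log2(FPKM + 0.1) it was 258 in the first direction and 460 in the second, with log2(FPKM + 5) 49 and 100, with a threshold of 0.5 45 and 75, and with 0.25 337 and 687. Centring within 10 groups by coding adenine share, chosen after seeing the data, gave 170 in the second direction. Median-of-ratios scaling gave 174 and 205, with 132 of the 146 and 187 of the 285 among them. Quantile normalization gave 181 and 223, with 139 of the 146 and 194 of the 285. Leaving out single libraries gave 125 to 165 genes in the first direction and 192 to 366 in the second. Without J0951Col replicate 1, 106 of the 146 and 165 of the 285 still met the rule.

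With the 2 groups fitted alone, members called were 47 in J0571YUC4 against Q2500YUC4, 5 in Q2500YUC4 against Q0990YUC4 and 1 in Q0990YUC4 against J0951Col, the cause of which was not tested. Median-of-ratios scaling gave 13 in the latter. Leaving out single libraries gave 50 to 205 in J0571YUC4 against Q2500YUC4, 63 to 102 in J0571YUC4 against Q0990YUC4, 34 to 230 in Q2500YUC4 against Q0990YUC4, 72 to 101 in J0571YUC4 against J0951Col, 13 to 66 in Q2500YUC4 against J0951Col and 0 to 21 in Q0990YUC4 against J0951Col. Of 168 alternatives for the named tests 166 kept direction and call and 2 kept direction only. Of 766 alternatives for leading members 31 moved by more than the spread between libraries and 0 changed sign. Those members were chosen for large differences and for libraries that do not overlap. Leaving out a library or changing the pseudocount could therefore not change a sign, so the 0 is no support for them.

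Replicate numbers showed no clear pairing of the libraries, which was described and not tested. The 45 same-number pairs had correlations of -0.27 to 0.38, with a median of 0.016 beside -0.00024 for pairs of other numbers. Of 18 libraries, 8 were closest to their own number. With the replicate block the members called in Q0990YUC4 against J0951Col were 10 in place of 6, and the other counts stayed within 1.5 times, at 77, 101, 111, 112 and 25. LSU1, not called in Q2500YUC4 against Q0990YUC4 at a log2 difference of 0.05, stood at -0.15 without Q0990YUC4 replicate 3 and at 0.56 without Q2500YUC4 replicate 3. Depth is unknown, so low FPKM have no counting interval, and 61 and 92 members with a control mean under 5 FPKM are the least certain.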
